A study of Mus musculus with 12 samples.

Results

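The 8 genes described here, Msln, Wt1, Upk3b, Upk1b, Lrrn4, Krt19, Krt8 and Krt18, are used as markers of the mesothelium, and they were followed in mouse peritoneal macrophages, liver and aorta. Every probe set annotated to 1 of these genes alone was taken, which gave 8 probe sets, 1 for each gene, of 21789 such probe sets (19938 genes) on the array type that held macrophage and liver RNA. The array used for aorta carried 9 probe sets for 6 of the genes, of 20393 probe sets (12394 genes), with none for Upk1b or Lrrn4.

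Knockout mice (Prkch-/-Apoe-/-) lacked both Prkch, which encodes protein kinase C eta, and Apoe. Control mice (Apoe-/-) lacked Apoe alone, although their samples are labelled wt, so every group lacked this apolipoprotein. All were C57BL/6J. Macrophages were elicited with thioglycolate from the peritoneal cavity of females on regular diet and were not stimulated, with 3 knockout and 3 control arrays from mice aged 18, 17 and 27 weeks for replicates 1, 2 and 3 of each genotype. Livers came from males aged 20 weeks that had eaten a high-fat diet for 12 weeks and were re-fed before sampling, with 2 knockout and 2 control arrays. Aortas came from fed males of the same age and diet, with 1 knockout and 1 control array, each of RNA pooled from 4 mice. The labels call the arrays biological replicates, and p-values measure only the spread between these arrays. No value carries a read count, so the number of arrays limits the precision.

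The mesothelium is a single layer of flat epithelial cells that lines the peritoneal cavity and covers its organs. Fluid washed from the cavity holds macrophages together with some of these lining cells and with lymphocytes and mast cells. Mesothelial and underlying stromal cells that express Wt1 make retinoic acid, a signal that supports Gata6 in the resident macrophages of the mouse peritoneum. Mesothelial cells carry simple-epithelial keratins and uroplakins, a family of membrane proteins best known from the bladder lining, and Krt8 and Krt18 are also the keratin pair of hepatocytes.

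In the GRCm38.p6 annotation of RefSeq, the genes lie at chr17:25748613-25754378 (Msln), chr2:105126529-105173614 (Wt1), chr5:136038496-136044993 (Upk3b), chr16:38773182-38800203 (Upk1b), chr2:132866686-132894010 (Lrrn4), chr11:100140810-100145926 (Krt19), chr15:101996711-102004342 (Krt8) and chr15:102028216-102032026 (Krt18). Krt8 and Krt18, whose proteins pair in one filament, are neighbours with 23873 bases between them. RefSeq promoter sequences were at hand for 4 of the 8 genes and are shown because the results below set Krt8 and Krt18, which were bright in liver, beside Upk3b and Lrrn4, which were not. Each window runs 5′ to 3′ on the gene's strand, from 80 bases before to 20 bases after the start given in the promoter table, and capitals mark the letters TATAA.
Upk3b: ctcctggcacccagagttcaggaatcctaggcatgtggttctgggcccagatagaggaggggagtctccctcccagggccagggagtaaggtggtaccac
Lrrn4: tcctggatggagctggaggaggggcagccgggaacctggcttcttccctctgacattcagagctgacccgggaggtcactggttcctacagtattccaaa
Krt8: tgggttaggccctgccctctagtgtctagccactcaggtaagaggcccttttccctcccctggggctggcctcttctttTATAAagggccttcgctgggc
Krt18: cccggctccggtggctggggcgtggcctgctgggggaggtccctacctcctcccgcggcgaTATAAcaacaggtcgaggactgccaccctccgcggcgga
The windows are chr5:136038416-136038515 on the + strand for Upk3b, chr2:132880843-132880942 on the - strand for Lrrn4, chr15:102004323-102004422 on the - strand for Krt8 and chr15:102028136-102028235 on the + strand for Krt18. That start is the outer end of the gene for Upk3b, Krt8 and Krt18, but for Lrrn4 it lies 13148 bases inside the gene as placed above, so the Lrrn4 window belongs to an internal start. TATAA was present in the Krt8 and Krt18 windows and not in the Upk3b and Lrrn4 windows. Its first base lay 1 base before the start of Krt8 and 19 bases before that of Krt18. In Krt8 it overlaps the same motif read on the other strand (TTATA). Of all 32851 promoters cut to this window, 7.37% held TATAA on the gene's strand and 9.93% on either strand. The motif was chosen after the sequences were seen, and a match is a description of letters, not a measured site.

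The macrophage arrays were placed in 2 sets, called batches below, from exact ties between deposited log2 values alone. The labels name no processing batch, and what was done to each set is not given in the sources used here. Knockout replicates 2 and 3 and control replicate 3 (batch 2) shared 16075 to 18000 identical values per pair, knockout replicate 1 and control replicates 1 and 2 (batch 1) shared 53 to 69, and pairs across the batches shared 0 to 3. The 4 liver arrays shared 48 to 103 per pair, so batch 1 had ties like those of liver and batch 2 stood apart. Within batch 2, the knockout and control means were exactly equal for 40.2% of the tested probe sets. The control array of batch 2 was from mice aged 27 weeks, and its knockout arrays from mice aged 17 and 27 weeks. Array medians were 6.57 to 6.77 log2 units in macrophages and 5.88 to 5.93 in liver. The brighter probe set of the targeted gene Prkch was lower on all 3 knockout macrophage arrays than on the controls of their own batch. The differences were -0.54, -0.53 and -0.45 log2 units for replicates 1, 2 and 3. It read 9.36, 8.79 and 8.87 log2 units on knockout arrays, against 9.94, 9.86 and 9.31 on control arrays. Across batches the groups overlapped, and the knockout level was 61.6% of the control level. The dimmer Prkch probe set differed less, by -0.25, -0.22 and -0.22 log2 units.

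In macrophages none of the 8 mesothelial genes passed the test, and 7 of 8 had a lower mean in knockout than in control arrays. With limma over 16400 probe sets and Benjamini-Hochberg adjustment at 0.05, 0% of probe sets were called in either direction, and 0 of 8 mesothelial genes (smallest adjusted p = 1.00). At an unadjusted p under 0.05 there were 127 probe sets, 26 higher and 101 lower in knockout, and 2 of them were Upk3b and Krt19. All 8 genes passed the filter on dim probe sets, set at 5.74 log2 units. The median difference of the 8 genes was -0.25 log2 units, against -0.04 for all probe sets, of which 63.0% were lower in knockout. Knockout and control arrays overlapped for all 8 genes. Among all probe sets, 1.74% had every knockout array below every control array and 0.683% had every knockout array above.

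Msln encodes mesothelin, a glycoprotein anchored to the surface of mesothelial cells. It read 6.40, 6.51 and 6.51 log2 units on knockout arrays, against 6.31, 6.29 and 6.54 on control arrays. The groups overlapped, and Msln alone among the 8 genes had a higher knockout mean, by 0.10 ± 0.10 (SE, n = 3 each; limma, unadjusted p = 0.354). Within batch 2 the difference was -0.03, and knockout replicates 2 and 3 carried the same deposited value. Leaving out control replicate 3 gave 0.18, and leaving out control replicate 2 gave 0.05.

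Wt1 encodes a zinc finger transcription factor needed for the embryonic mesothelium. Its values were 7.50, 6.38 and 6.77 log2 units on knockout arrays, against 7.50, 7.36 and 6.92 on control arrays. Knockout replicate 1 equalled the highest control array at this rounding, and knockout replicates 2 and 3 lay below all controls. The knockout mean was 77.1% of the control mean, a difference of -0.37 ± 0.30 log2 units (SE, n = 3 each; limma, unadjusted p = 0.251). All 3 arrays of batch 2 were below all 3 of batch 1, and fitting the batch as a block gave a difference of -0.13 ± 0.15. Without knockout replicate 2 it was -0.12, and without knockout replicate 1 it was -0.68.

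Upk3b encodes uroplakin 3b, a membrane protein of mesothelial cells. It read 6.60, 6.24 and 6.24 log2 units on knockout arrays, against 6.84, 6.72 and 6.56 on control arrays. The overlap rested on knockout replicate 1, which exceeded control replicate 3 of the other batch, and within each batch every knockout array was below every control array. The difference was -0.34 ± 0.13 log2 units (SE, n = 3 each; limma, unadjusted p = 0.0391), -0.17 within batch 1 and -0.31 within batch 2. With the batch as a block it was -0.24 ± 0.06 (unadjusted p = 0.0120; limma, Benjamini-Hochberg adjusted p = 0.920). Knockout replicates 2 and 3 carried the same deposited value here too, which narrows that SE. Over the arrays left out in turn the difference was -0.46 to -0.27, with an unadjusted p of 0.0989 without knockout replicate 2 and of 0.126 without control replicate 1 (limma).

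Upk1b encodes a tetraspanin that pairs with a uroplakin of the UPK3 type in the bladder lining. Its values were 6.84, 6.09 and 6.43 log2 units on knockout arrays, against 7.22, 6.82 and 6.76 on control arrays. Knockout replicate 1 lay between control replicates 1 and 2 of its own batch, and the other two knockout arrays lay below all controls. The difference was -0.48 ± 0.21 log2 units (SE, n = 3 each; limma, unadjusted p = 0.0627), -0.18 within batch 1 and -0.50 within batch 2. It was -0.30 without knockout replicate 2.

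Lrrn4 encodes a membrane protein with leucine-rich repeats. It read 6.80, 6.48 and 6.49 log2 units on knockout arrays, against 6.89, 6.70 and 6.70 on control arrays. The pattern across arrays was that of Upk1b on a smaller scale, with knockout replicate 1 among the controls. The difference was -0.17 ± 0.12 log2 units (SE, n = 3 each; limma, unadjusted p = 0.199), 0.01 within batch 1 and -0.21 within batch 2. It was -0.27 without knockout replicate 1 and -0.10 without control replicate 1.

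Krt19, a type I keratin of mesothelium and bile duct cells, had the largest difference of the 8 genes. It read 7.56, 6.40 and 7.03 log2 units on knockout arrays, against 7.99, 7.42 and 7.75 on control arrays. Knockout replicate 1 was above control replicate 2, and knockout replicates 2 and 3 were below all controls. The mean was 6.998 ± 0.579 in knockout and 7.719 ± 0.289 in control arrays (SD, n = 3 each), so the knockout level was 60.7% of the control level. The difference was -0.72 ± 0.30 log2 units (SE; limma, unadjusted p = 0.0480), and it was -0.14 within batch 1 and -1.03 within batch 2. With the batch as a block it was -0.59 ± 0.32 (limma, unadjusted p = 0.125), and without knockout replicate 2 it was -0.42 (limma, unadjusted p = 0.0886).

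Krt8 and Krt18 encode the type II and type I keratins that pair in simple epithelia. Krt8 read 7.45, 7.36 and 7.07 log2 units on knockout arrays, against 7.29, 7.48 and 7.61 on control arrays, a difference of -0.17 ± 0.13 (SE, n = 3 each; limma, unadjusted p = 0.259). Krt18 read 7.06, 6.37 and 6.26 on knockout arrays, against 6.87, 6.89 and 6.39 on control arrays, a difference of -0.15 ± 0.24 (SE, n = 3 each; limma, unadjusted p = 0.547). The 2 partners did not follow each other across the arrays. Krt18 separated by batch and not by genotype, at 6.87 to 7.06 in batch 1 and 6.26 to 6.39 in batch 2. Its difference was 0.18 within batch 1 and -0.07 within batch 2, and the blocked fit gave 0.05 ± 0.08 (SE). That of Krt8 was 0.06 within batch 1 and -0.39 within batch 2. With single arrays left out, Krt8 differed by -0.05 without knockout replicate 3 and by -0.25 without control replicate 1, and Krt18 by -0.0030 without knockout replicate 3 and by -0.40 without knockout replicate 1.

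**Figure D1:**
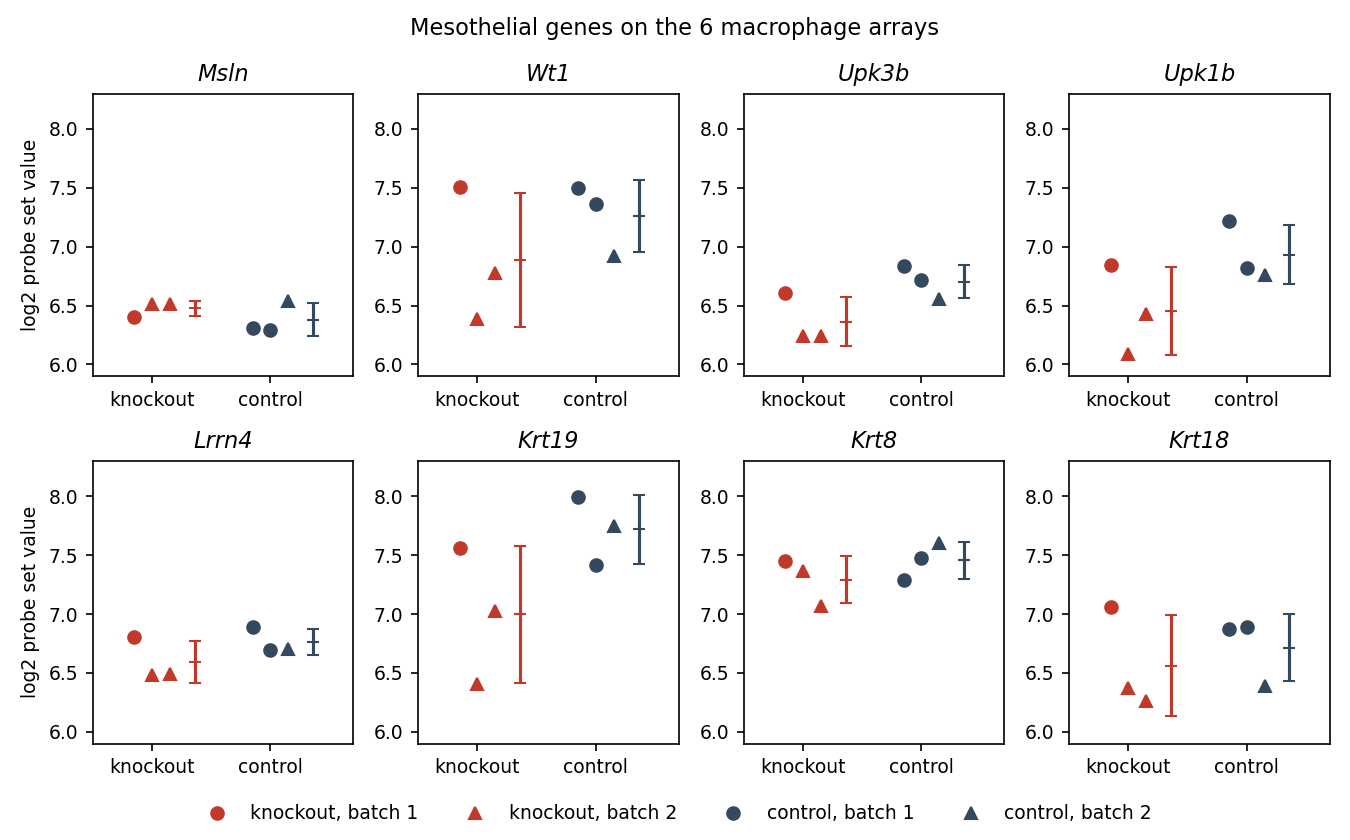
Deposited log2 value of each mesothelial gene on the 6 macrophage arrays, knockout left of control, with circles for batch 1, triangles for batch 2 and bars for mean ± SD (n = 3 each). The knockout circle lies within or above the control values of its batch for Msln, Wt1, Upk1b, Lrrn4, Krt19, Krt8 and Krt18 and below them for Upk3b, and the knockout triangles lie below the control triangle in all 8 panels.

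The 8 genes differed between knockout arrays. On knockout replicate 1, 3 of 8 genes were lower and 5 higher than the mean of the batch 1 controls, with a median of 0.04 log2 units. On knockout replicates 2 and 3, all 8 were lower than control replicate 3, with medians of -0.28 and -0.26. That comparison rests on 1 control array, which both knockout arrays share. The control array and knockout replicate 3 were from mice aged 27 weeks, and knockout replicate 2 from mice aged 17 weeks. For knockout replicate 2, genotype and age cannot be told apart in this comparison. Among all probe sets, 43.1% were lower and 56.9% higher on knockout replicate 1, with a median of 0.03, so the members' share was near that of the array. Of all probe sets, 29.9% were lower, 45.6% equal and 24.5% higher on knockout replicate 2, and 22.1%, 54.9% and 23.0% on knockout replicate 3.

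The genes differed in size as well as in array. On knockout replicates 2 and 3, Krt19 differed from control replicate 3 by -1.35 and -0.72 log2 units and Upk1b by -0.67 and -0.33. Wt1 differed by -0.53 and -0.14 on the same arrays, and Krt8 by -0.24 and -0.54, so Krt8 was lower on replicate 3 and the other 3 genes on replicate 2. Upk3b and Lrrn4 differed little between these arrays, by -0.31 on both for Upk3b and by -0.22 and -0.21 for Lrrn4. Msln and Krt18 were close to the control, at -0.03 on both arrays for Msln and at -0.02 and -0.13 for Krt18.

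With the batch as a block, 6 of 8 genes were lower in knockout and the median difference was -0.15 log2 units, against 0.01 for all probe sets, of which 44.0% were lower. Limma with Benjamini-Hochberg adjustment called 0% of probe sets in that fit and 0 of 8 mesothelial genes (smallest adjusted p = 0.920), with 243 probe sets at an unadjusted p under 0.05. The pooled median depended on single arrays. It was -0.43 without knockout replicate 1 and -0.16 without knockout replicate 2. All 3 arrays of batch 2 were below all 3 of batch 1 for 4 of 8 genes, Wt1, Upk3b, Upk1b and Krt18, and for 45.3% of all tested probe sets.

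**Figure D2:**
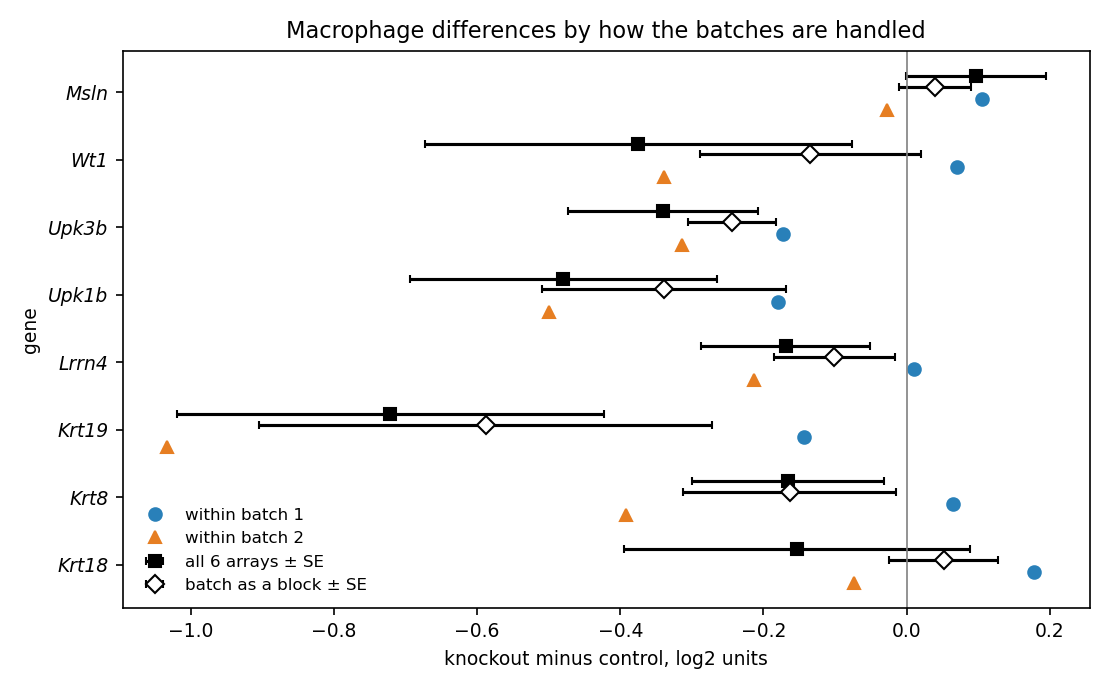
Knockout minus control in macrophages, in log2 units, for each mesothelial gene: squares for all 6 arrays and diamonds with the batch as a block (bars are SE), circles within batch 1 and triangles within batch 2. Upk3b, Upk1b and Krt19 are below 0 in all 4 readings, while Msln, Wt1, Lrrn4, Krt8 and Krt18 have readings on both sides of 0.

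Across the 6 macrophage arrays, most of the genes varied together. Pearson's r of each gene with the mean of the other 7 was 0.97 for Lrrn4, 0.95 for Upk1b, 0.94 for Upk3b, 0.91 for Wt1, 0.87 for Krt19 and 0.74 for Krt18. It was 0.33 for Krt8 and -0.73 for Msln. These are descriptions over 6 arrays that share 2 batches, and 45.3% of all tested probe sets were lower on every batch 2 array than on every batch 1 array. No r for other gene sets is given beside them, so they do not show a trait of these genes alone. The mean of the 8 genes was 7.03, 6.48 and 6.60 log2 units on knockout arrays and 7.11, 6.96 and 6.90 on control arrays, so knockout replicates 2 and 3 were the lowest of the 6.

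The 6 genes most like that mean, among 4527 tested probe sets of other genes with a range of at least 0.5 log2 units, were Cdh3 (Pearson's r = 0.994 over 6 arrays), Cavin1 (0.986), Mxra8 (0.986), C1s2 (0.981), Gpr39 (0.979) and Serpinb6b (0.978). Cdh3 encodes P-cadherin, an epithelial adhesion protein, and Cavin1 a coat protein of caveolae. Cdh3 read 6.54, 5.89 and 6.00 log2 units on knockout arrays, against 6.57, 6.37 and 6.38 on control arrays. Cavin1 read 7.41, 6.82 and 6.94 on knockout arrays, against 7.41, 7.31 and 7.17 on control arrays. In both genes, knockout replicates 2 and 3 were below all controls, while knockout replicate 1 was next to control replicate 1. That pattern follows from the choice of genes by likeness to a mean that was itself lowest on knockout replicates 2 and 3. Groups overlapped for all 6 genes.

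The ranks were in the middle of the array in macrophages. On the macrophage arrays the 8 genes ranked between the 38.4th and the 68.5th percentile of all probe sets. Hepatocyte genes reached the 55.1st percentile on the same arrays. The ranges of Msln, Upk3b and Lrrn4 lay wholly below that value, so ranks in this range do not by themselves show expression. Krt8 ranked at 58.4 to 65.3, Krt19 at 45.7 to 68.5, Wt1 at 45.2 to 62.3 and Upk1b at 38.4 to 58.5. Krt18 ranked at 43.5 to 55.3, Lrrn4 at 47.3 to 52.9, Upk3b at 41.9 to 52.0 and Msln at 40.6 to 48.9. These ranges overlap for most neighbouring genes, and probe sets differ in brightness for reasons other than transcript level, so they give no order of expression. The 10 macrophage genes checked against the label, among them Cd68, Csf1r and Lyz2, ranked at or above the 89.5th percentile on all 6 arrays.

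Other genes of the mesothelium were taken from a list of 17, of which 13 passed the filter in macrophages. Of these 13, 11 were lower and 2 higher in knockout, with a median of -0.16 log2 units, and limma with Benjamini-Hochberg adjustment called 0 of 13. With the batch as a block, 6 were lower and 7 higher, with a median of 0.01. Aldh1a2, the retinaldehyde dehydrogenase that makes retinoic acid in these cells, read 8.09, 7.80 and 7.82 log2 units on knockout arrays, against 8.55, 8.04 and 8.20 on control arrays. Knockout replicate 1 lay between the 2 controls of its batch, and the difference was -0.36 ± 0.15 (SE, n = 3 each; limma, unadjusted p = 0.0517). Igfbp6, an insulin-like growth factor binding protein, differed by -0.46, the membrane glycoprotein gene Gpm6a by -0.40 and the retinaldehyde dehydrogenase gene Aldh1a1 by -0.34. The 2 genes that were higher, named after their values were seen, were Slpi, which encodes a secreted protease inhibitor, and Rspo1, a secreted activator of Wnt signalling, with differences of 0.31 ± 0.39 (SE) and 0.10. Slpi read 7.529, 8.903 and 7.693 log2 units on knockout arrays, against 8.004, 7.917 and 7.279 on control arrays, and was highest on knockout replicate 2. Of 9 tested genes for epithelial junctions and other keratins, 6 were lower and 3 higher, with a median of -0.10, and 2 were lower and 7 higher with the block.

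Markers of other cell types also differed between the knockout arrays. Fibroblast genes were lower in knockout for 8 of 9 tested, with a median of -0.57 log2 units, and limma with Benjamini-Hochberg adjustment called 0 of 9. Their median was 0.18 on knockout replicate 1, -1.50 on replicate 2 and -0.50 on replicate 3 relative to the controls of the same batch. Dcn, which encodes the matrix proteoglycan decorin, read 9.13, 6.84 and 8.02 log2 units on knockout arrays, against 9.82, 8.23 and 9.40 on control arrays. Like Krt19, it was lowest on knockout replicate 2. The pooled fibroblast median of -0.57 was the value of Pdpn, named after its values were seen. Pdpn read 11.37, 9.49 and 11.62 log2 units on knockout arrays, against 11.44, 11.49 and 11.26 on control arrays. It was brighter than Dcn on each array, and its cell of origin here was not tested. B cell genes had medians of -0.56, 2.01 and -0.18 on the 3 knockout arrays, and macrophage genes -0.23, 0.81 and -0.06. Knockout replicate 2 thus had the lowest fibroblast and the highest B cell and macrophage medians.

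The summed linear level of the 8 mesothelial genes was 740 to 1086 on knockout arrays and 1014 to 1171 on control arrays. Sums took every listed gene with a probe set, also those below the filter. The 17 other mesothelial genes summed to 1410 to 1766 on knockout and 1519 to 2117 on control arrays. The 12 fibroblast genes, with the bright Pdpn among them, summed to 1864 to 6128 on knockout and 4961 to 6551 on control arrays. The 7 B cell genes summed to 815 to 4542 on knockout and 868 to 1811 on control arrays. The part of these cell types in the mesothelial values was not tested. In such bulk RNA, fewer cells of a type and less RNA per cell cannot be told apart.

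**Figure D3:**
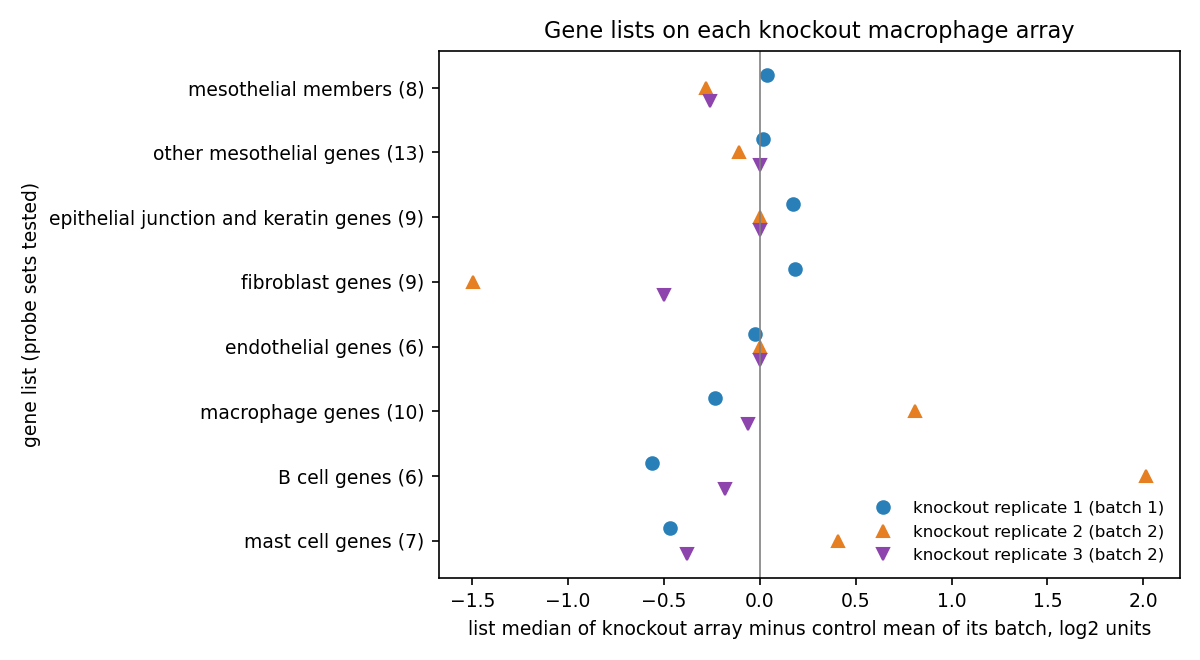
Median over each gene list of a knockout macrophage array minus the mean of the control arrays of its batch, in log2 units, with the number of probe sets tested in brackets. For the mesothelial genes knockout replicate 1 is at 0.04 and replicates 2 and 3 at -0.28 and -0.26, and for fibroblast genes replicate 2 is at -1.50.

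In liver, none of the 8 mesothelial genes passed the test, and 6 of 8 had a higher mean in knockout than in control. Limma over 17382 probe sets with Benjamini-Hochberg adjustment called 0.0115%, which is 2 probe sets, both of the isoprenoid enzyme gene Idi1 (named after its values were seen), and 0 of 8 mesothelial genes. The median difference of the 8 genes was 0.07 log2 units, against -0.02 for all probe sets, of which 56.0% were lower. All 8 genes passed the liver filter of 4.87 log2 units, and hepatocyte genes ranked at or above the 95.8th percentile on all 4 liver arrays.

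Krt8 read 11.09 and 11.11 log2 units on knockout livers, against 11.41 and 11.25 on control livers. It was lower on both knockout arrays, with a difference of -0.23 ± 0.13 (SE, n = 2 each; limma, unadjusted p = 0.117, Benjamini-Hochberg adjusted p = 1.00). Its partner Krt18 read 10.30 and 10.87 on knockout livers, against 10.61 and 10.70 on control livers, and the groups overlapped. Krt19 read 6.52 and 6.52 on knockout livers, against 6.44 and 6.27 on control livers, higher on both knockout arrays by 0.17 ± 0.13 (limma, unadjusted p = 0.245). Krt8 and Krt19 were the only members of the 8 whose liver groups did not overlap. That separation was common at 2 arrays a group, with 17.3% of all probe sets lower and 12.3% higher on both knockout arrays.

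The other members were dimmer in liver. Upk3b read 5.77 and 6.39 log2 units on knockout livers, against 5.59 and 5.81 on control livers, a difference of 0.39 ± 0.21 (SE, n = 2 each; limma, unadjusted p = 0.102) that came mostly from knockout replicate 2. Wt1 read 6.13 and 6.30 on knockout livers, against 6.11 and 6.21 on control livers, and Msln 5.66 and 5.94 on knockout livers, against 5.76 and 5.47 on control livers. Both overlapped between genotypes. Upk1b read 5.15 and 5.47 on knockout livers, against 5.22 and 5.30 on control livers, and Lrrn4 5.13 and 5.25 on knockout livers, against 4.96 and 5.24 on control livers, with differences of 0.05 ± 0.15 and 0.09 ± 0.15 (SE).

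The genotype difference in macrophages was then set against that in liver, 2 settings that differ in tissue, sex, diet and age. Limma called 0% of 17853 probe sets for this contrast and 0 of 8 mesothelial genes (Benjamini-Hochberg adjusted p = 1.00 for each), with 372 probe sets at an unadjusted p under 0.05. The macrophage difference minus the liver difference was -0.73 ± 0.27 log2 units for Upk3b (SE; limma, unadjusted p = 0.0226) and -0.89 ± 0.40 for Krt19 (unadjusted p = 0.0491). The Upk3b value joined a difference of -0.34 in macrophages and 0.39 in liver, and it depended on single arrays of both. It was -0.42 without knockout liver replicate 2 and -1.04 without knockout liver replicate 1. Without control macrophage replicate 1 it was -0.66 (limma, unadjusted p = 0.0504). The Krt19 value was -0.59 without knockout macrophage replicate 2 (limma, unadjusted p = 0.0568), and the contrast has no term for the macrophage batches. The same contrast was -0.52 ± 0.30 for Upk1b and -0.43 ± 0.40 for Wt1, and between -0.26 and 0.07 for the other 4 genes.

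Krt8 and Krt18 stood apart from the other 6 genes in their rank by tissue. On the liver arrays Krt8 ranked at the 97.4th to 97.9th percentile of all probe sets and Krt18 at the 95.3rd to 96.9th, against 58.4 to 65.3 and 43.5 to 55.3 on macrophage arrays. The other 6 genes lay between the 31.4th and the 61.2nd percentile in liver. Lrrn4 ranked at 31.4 to 37.3 in liver, below its 47.3 to 52.9 in macrophages, while the ranges of Msln, Wt1, Upk3b, Upk1b and Krt19 overlapped between the tissues.

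In the aorta, 4 of 9 mesothelial probe sets passed the filter on dim signal, and 0 of 9 differed by 2-fold or more between the pools. With 1 array a genotype there is no replicate check. Differences are on the log2(signal + 16) scale, which understates those of dim genes. Of 10825 probe sets past the filter, 0.804% were at least 2-fold higher in the knockout pool (87) and 0.425% at least 2-fold lower (46), and dividing each array by its median turned that split to 72 higher and 74 lower.

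Upk3b had signals of 37.8 in the knockout pool and 37.7 in the control pool on one probe set, and 65.1 in the knockout pool and 43.0 in the control pool on the other, so the 2 probe sets disagreed. The brightest Krt8 probe set had 33.2 in the knockout pool and 31.3 in the control pool, and Krt18 had 34.0 in the knockout pool and 41.7 in the control pool. Msln (24.5 in the knockout pool, 14.8 in the control pool), Wt1 (11.1 in the knockout pool, 9.40 in the control pool) and Krt19 (23.2 in the knockout pool, 20.0 in the control pool) were below the filter, as were the other 2 Krt8 probe sets. The median difference past the filter was 0.03, against 0.0034 for all probe sets, and -0.05 after dividing each array by its median. Of the 16 probe sets for other mesothelial genes, 10 passed the filter, with 8 higher and 2 lower in the knockout pool. Among them Slpi had 127 in the knockout pool and 42.9 in the control pool, and Aldh1a1 had 256 in the knockout pool and 144 in the control pool. Lymphocyte markers differed more in the same pools. B cell genes were higher in the knockout pool on 5 of 5 probe sets past the filter, with a median difference of 1.96, and T and NK cell genes on 3 of 3, with a median of 1.07. The B cell surface gene Ms4a1 had 453 in the knockout pool and 49.9 in the control pool on its brighter probe set. The part of these cells in the mesothelial values was not tested.

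**Figure D4:**
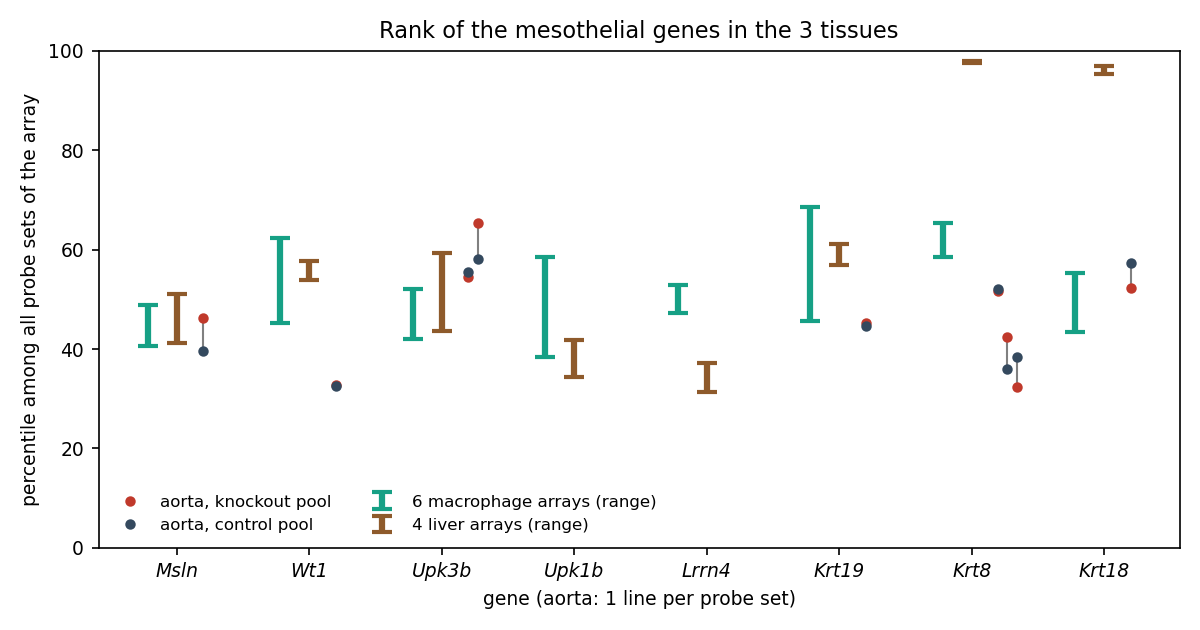
Rank of each mesothelial gene as a percentile of all probe sets of its array: bars span the 6 macrophage and the 4 liver arrays, and points are the knockout and control aorta pools for each probe set. Krt8 and Krt18 lie above 95 in liver, and in macrophages all 8 genes lie between 38.4 and 68.5.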

How the data were processed

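RNA of 12 Affymetrix arrays was compared: 6 of elicited peritoneal macrophages, 4 of liver and 2 of aorta. Per the submitters' processing notes, the authors summarised the arrays in Affymetrix Expression Console, whose version and algorithm were not given in the sources used here. From their range, the deposited values of macrophages and liver are log2 summaries per probe set, and the deposited values of aorta are linear intensity (signal) that the authors had scaled.

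Probe sets with 1 gene symbol in the platform annotation entered. Those dimmer on average than the 30th percentile of the array were dropped, as were aorta probe sets whose brighter array was below the median signal of 28.9. Each tissue was fitted alone with limma 3.58.1 (lmFit, eBayes) in R 4.3.3, with Benjamini-Hochberg adjustment over all probe sets tested. The scripts were tested on simulated data. Macrophage arrays sharing at least 20 identical values were put in one batch.

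The members and the marker lists were chosen with earlier results of these data known. The text names all 8 members, Prkch, up to 4 genes of another list with the smallest unadjusted p (in aorta, the largest difference), and the 6 genes most like the members' mean. Alternatives tried were the batch or replicate number as a block, leaving out each array, other filters, quantile normalization, 1 probe set a gene, a trended prior, a joint fit and other aorta pseudocounts.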

Additional observations from a re-analysis of the deposited data

How the results depend on the processing

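The count of macrophage probe sets called by limma was 0 under all 14 alternatives. The members' macrophage median stayed below 0 in each except within batch 1 (0.0377), a difference chosen after seeing the data, and its range over arrays left out was -0.43 to -0.16. Differences with the other sign in macrophages were -0.0267 for Msln within batch 2, 0.0709 for Wt1, 0.0110 for Lrrn4, 0.0645 for Krt8 and 0.178 for Krt18 within batch 1, and 0.0522 for Krt18 with the batch as a block. The same replicate numbers carry the same ages, and deviations of same-numbered macrophage arrays correlated at 0.40, 0.03 and 0.50. For knockout replicates 1 and 3 this was the highest correlation with any control array. Knockout replicate 2 correlated most with control replicate 3, at 0.07, and its same-numbered control is in the other batch. These values do not settle whether the numbers pair the arrays, and the main fit did not pair them. With the replicate block, 0 macrophage probe sets were called (limma, smallest Benjamini-Hochberg adjusted p = 0.947) and 16 liver probe sets, 10 higher and 6 lower, in place of 2. In that macrophage fit 236 of 16400 probe sets had an unadjusted limma p under 0.05. The unadjusted limma p was 0.00236 for Krt19, 0.00682 for Upk1b and 0.0117 for Upk3b. For the other members it was 0.0923 or above. The replicate block does not remove the batch, since for replicate 2 it sets a batch 2 knockout array against a batch 1 control array. The liver count was 0 with no filter, 1 with 1 probe set a gene, 0 with all 10 arrays in 1 fit, and 0 to 39 with each array left out, 39 being without knockout replicate 2; that setting also gave 1 for the contrast between tissues, against 0 for the other arrays. The members' liver median ran from 0.00069 without knockout replicate 2 to 0.187 without knockout replicate 1, and it was -0.0050 over the 4 members left by a filter at the 50th percentile. Liver differences with each array left out ran from -0.0261 to 0.141 for Wt1, -0.115 to 0.206 for Upk1b, -0.0489 to 0.229 for Lrrn4 and -0.353 to 0.219 for Krt18. In the aorta, 285 probe sets were at least 2-fold apart with a pseudocount of 1 and 48 with 64, against 133. No cause of these shifts was tested. The ties in batch 2, with 65.5% of tested probe sets holding at least 2 identical values there, limit what its arrays can show.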
